A study of Homo sapiens with 12 samples.

Results

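The genes described here encode the proteasome, the large protease that degrades ubiquitin-tagged proteins in the cytosol and nucleus. They were chosen by name (PSMA1 to PSMA7, PSMB1 to PSMB7, PSMC1 to PSMC6, PSMD1 to PSMD8 and PSMD11 to PSMD14) and matched by Ensembl identifier. Of these 32 genes, 28 were measured among the 17710 genes in the table; PSMA1, PSMA2, PSMA6 and PSMC1 were not analysed here. PSMD5 is an assembly chaperone and the other 31 are subunits, 27 of them measured. The study treated MM.1S, an established human multiple myeloma cell line, and measured total RNA on Affymetrix Clariom S arrays. There were 12 arrays, 3 in each of 4 groups, and each group held 1 array from each of 3 independent experiments. Values are log2 expression after RMA, the usual normalization for this type of array. Control cells were untreated. PIM cells received 100 nM of PIM447, an inhibitor of the PIM kinases, for 24 h. Pd cells received 200 nM pomalidomide, a drug that redirects the cereblon ubiquitin ligase, with 5 nM dexamethasone, a synthetic glucocorticoid, for 15 h. PIM-Pd cells received the 3 drugs together at those doses for 10 h. Treatments were sub-lethal, with viability between 74 and 81%. Each treatment had its own time, so drug and time cannot be told apart.

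The core particle of the proteasome is a barrel of stacked alpha and beta rings: the alpha rings gate the entry, and the beta rings hold the catalytic sites in the subunits encoded by PSMB5, PSMB6 and PSMB7. A regulatory particle caps the barrel; its base unfolds substrates with a ring of ATPases, and its lid removes the ubiquitin chains. Plasma cells make large amounts of immunoglobulin and depend heavily on protein degradation, and proteasome inhibitors that bind the PSMB5 product are standard drugs in myeloma.

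The group labels for dexamethasone were looked at on a marker whose name could be paired with an array identifier. That name came from the study's gene lists, which hold genes selected by change between these same groups. A difference between groups was therefore likely beforehand, and the marker is no independent check of the labels. TSC22D3, a direct glucocorticoid target, had mean log2 values of 6.04 in Control, 5.68 in PIM, 8.53 in Pd and 8.86 in PIM-Pd. It was thus higher in the 2 groups labelled with dexamethasone. It did not pass in PIM against Control or in PIM-Pd against Pd (limma adjusted p = 0.809 and 0.675). The labels for PIM447 were therefore not checked. The identity of the cell line was not tested on these arrays. The paper states that the identity of its myeloma lines was established by STR analysis.

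Some arrays stood apart from the rest. On the second principal component of all genes, which held 15.0% of the variance, PIM-Pd 1 scored 26.2, PIM 2 scored 15.0 and PIM 1 scored 14.0, and the other 9 arrays lay between -11.3 and 0.246. The same 3 arrays had the highest median log2 values, from 4.87 to 4.89, against 4.81 to 4.85 on the others. They also held the lowest proteasome levels, so the count of calls and the median of each comparison are also given without them.

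Compared to untreated cells, most proteasome genes had slightly lower mean values in each treated group, and few or none of the differences passed the test. The level of an array was taken as the median, over the 28 genes, of the log2 value minus the gene's control mean. It was 0.10, -0.13 and 0.04 on Control arrays 1 to 3. The PIM arrays had -0.32, -0.45 and -0.17, and the Pd arrays had -0.29, -0.21 and -0.30. On the PIM-Pd arrays the level was -0.43, -0.14 and -0.26. The 9 treated arrays all lay below the 3 Control arrays, but PIM-Pd 2, PIM 3 and Control 2 were close to each other, and the treated groups overlapped. Over all genes the same median stayed between -0.01 and 0.02 on each array. Control 2 was the Control array with low values, with 22 of 28 genes below their control mean, and Control 1 was the highest, with 6 of 28 below. Since RNA came from whole cultures, fewer cells that carry these transcripts and less RNA per cell cannot be told apart.

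**Figure D1:**
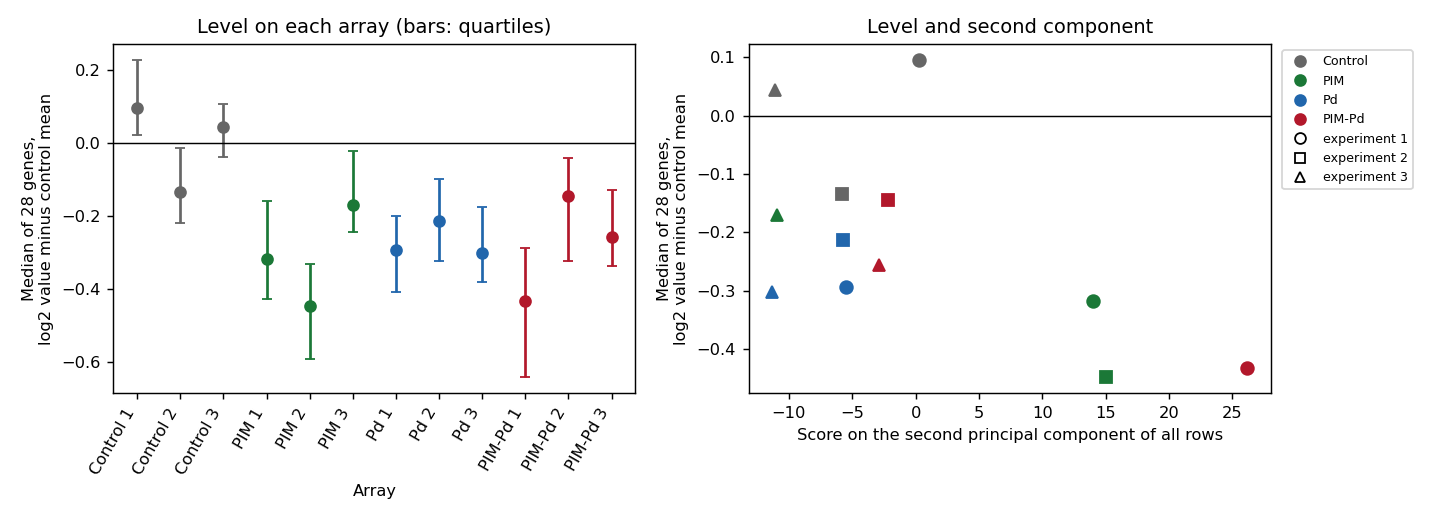
Level of the 28 proteasome genes on each array (left: points are the median over genes of the log2 value minus the gene's control mean, bars the quartiles) and the same level against the array's score on the second principal component of all genes (right). The 9 treated arrays lie below the Control arrays, and the 3 arrays with scores of 14.0 or more, PIM 1, PIM 2 and PIM-Pd 1, have the lowest levels.

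**Figure D2:**
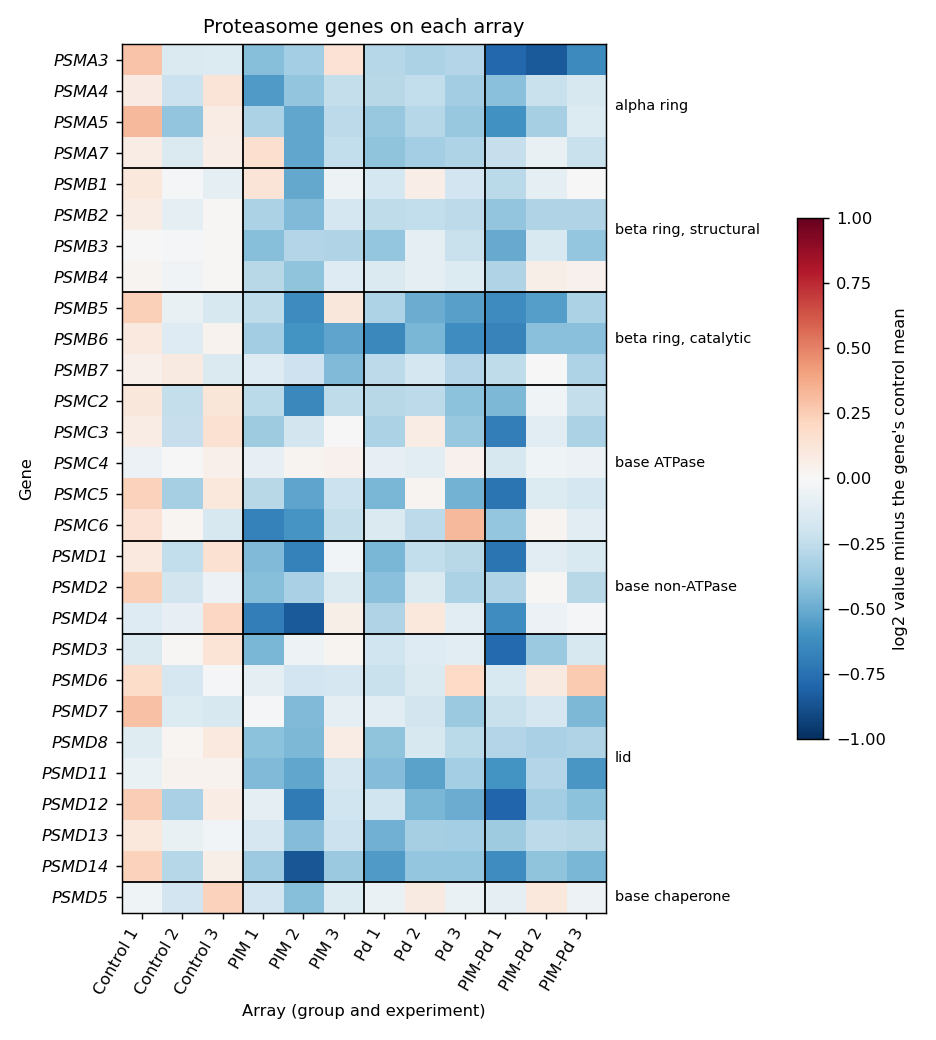
Log2 value of each of the 28 genes on each of the 12 arrays, minus the gene's control mean, with genes ordered by role and arrays by group and experiment. Blue marks values below the control mean; most of the treated columns are blue, with PIM 2 and PIM-Pd 1 darkest, PIM-Pd 2 paler, and the rows of PSMC4 and PSMD6 pale.

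In the alpha ring, PSMA3 (ENSG00000100567_at), an outer-ring subunit, had the lowest values under the triple combination. Its log2 values were 7.74, 7.31 and 7.32 in Control and 7.03, 7.12 and 7.60 in PIM. In Pd they were 7.17, 7.14 and 7.17, and in PIM-Pd they were 6.67, 6.62 and 6.82. The PIM-Pd arrays were below every array of the other 3 groups, the Pd arrays were close together just below Control, and PIM 3 lay within the Control range. Compared to Control, PSMA3 fell by 0.75 log2 units in PIM-Pd (SE 0.152, 40.6% lower, n = 3 per group, limma adjusted p = 0.00546, lower in 3 of 3 experiments). This call held on leaving out any 1 of the 12 arrays, with adjusted p up to 0.0324, and without the 3 arrays that stood apart (-0.73, limma adjusted p = 0.00813). It was lost without experiment 1 (-0.59, limma adjusted p = 0.0859) and without experiment 2 (-0.78, 0.0522), when each group keeps 2 arrays; over the 24 alternative settings the adjusted p ran from 0.00187 to 0.0859. The difference was -0.21 in PIM and -0.30 in Pd, neither past the test (limma adjusted p = 0.877 and 0.354). The PIM difference of PSMA3 changed sign, to 0.14, without the 3 arrays that stood apart, and to 0.04 without experiment 1. Its Pd difference was -0.16 without Control 1 and -0.16 without experiment 1. The other alpha genes measured, PSMA4, PSMA5 and PSMA7, had differences between -0.40 and -0.18 in the 3 treatments, and none passed.

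The structural beta subunits PSMB1, PSMB2, PSMB3 and PSMB4, which carry no active site, had differences between -0.35 and -0.07. None of these passed the test. PSMB2, for example, had -0.31 in PIM, -0.25 in Pd and -0.33 in PIM-Pd (SE 0.104).

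Of the catalytic beta subunits, PSMB6 (ENSG00000142507_at), which carries the caspase-like activity, fell in Pd and in PIM-Pd. Its log2 values were 9.22, 8.99 and 9.16 in Control and 8.77, 8.52 and 8.59 in PIM. They were 8.48, 8.67 and 8.50 in Pd, and 8.45, 8.71 and 8.70 in PIM-Pd. All 9 treated arrays lay below all 3 Control arrays, and the 3 treated groups overlapped each other. PSMB6 fell by 0.57 in Pd (SE 0.118, 32.8% lower, n = 3, limma adjusted p = 0.00962) and by 0.50 in PIM-Pd (SE 0.118, 29.3% lower, n = 3, limma adjusted p = 0.0137), lower in 3 of 3 experiments each time. In PIM the difference was about as large (-0.49, SE 0.118), but it did not pass after adjustment over all genes (limma adjusted p = 0.666, unadjusted p = 0.000826). The Pd call was lost without Control 1 (-0.53, limma adjusted p = 0.0525). The PIM-Pd call was lost without Control 1 (0.0643), without Control 3 (0.0556), without PIM-Pd 1 (0.0630), and without the 3 arrays that stood apart (0.0525), with differences from -0.48 to -0.42. Both were lost without experiment 1, at -0.49 in Pd and -0.37 in PIM-Pd (limma adjusted p = 0.116 and 0.184), and without experiment 3, at -0.53 and -0.52 (0.195 and 0.139). Over the alternatives the adjusted p ran from 0.00249 to 0.195 in Pd and from 0.00889 to 0.184 in PIM-Pd.

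PSMB5 (ENSG00000100804_at), the chymotrypsin-like subunit and the main target of proteasome inhibitors, had Control values of 7.88, 7.57 and 7.48. Its PIM values were 7.39, 7.02 and 7.76, which overlapped Control, while the Pd values of 7.33, 7.15 and 7.10 and the PIM-Pd values of 7.01, 7.09 and 7.33 were all below it. The differences were -0.25 in PIM, -0.45 in Pd and -0.50 in PIM-Pd (SE 0.169), and none passed the test (limma adjusted p = 0.858, 0.168 and 0.0846). In PIM-Pd it passed without PIM 2 (limma adjusted p = 0.0392) or PIM 3 (0.0410), arrays that enter the fit through its spread; over the 24 alternatives its adjusted p there ran from 0.0392 to 0.554. Its PIM difference was 0.11 without the 3 arrays that stood apart. PSMB7 (ENSG00000136930_at), the trypsin-like subunit, had values of 9.52, 9.56 and 9.33 in Control and 9.34, 9.26 and 9.02 in PIM. They were 9.21, 9.29 and 9.17 in Pd, all below Control, and 9.22, 9.47 and 9.16 in PIM-Pd, where array 2 lay within the Control range. Its differences, -0.26, -0.24 and -0.19 (SE 0.122), did not pass (limma adjusted p = 0.795, 0.344 and 0.463). The PIM difference was -0.45 without the 3 arrays that stood apart.

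**Figure D3:**
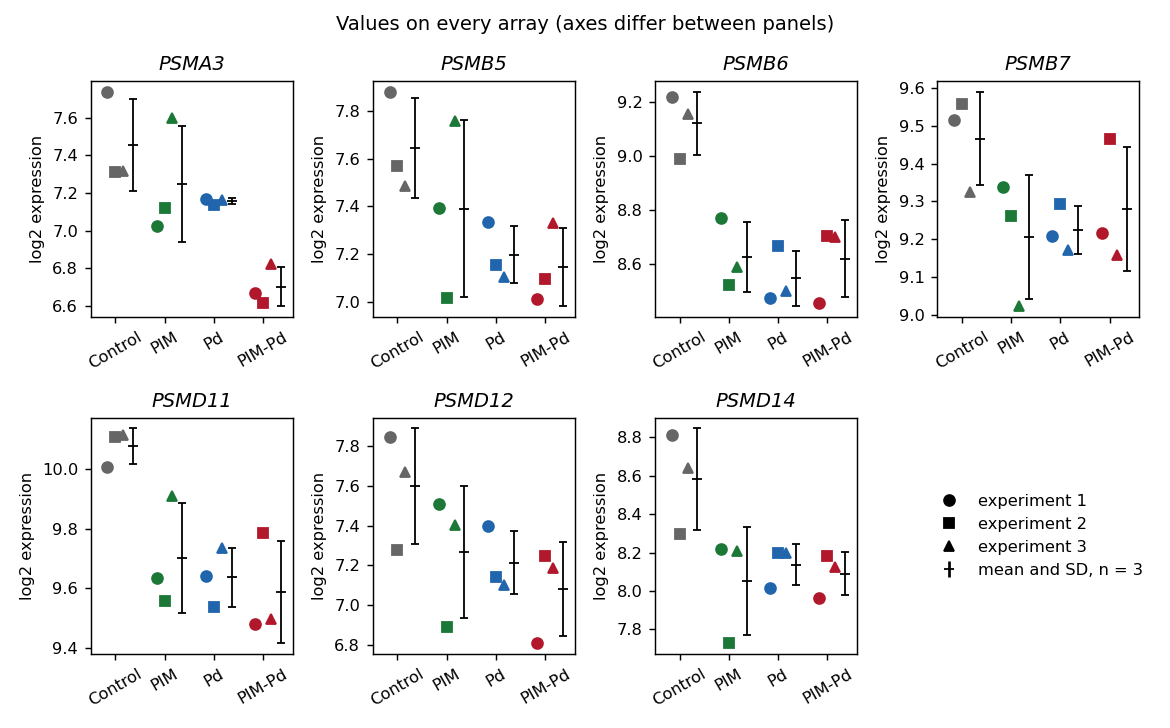
Log2 expression on every array for the 3 catalytic subunits and the 4 other genes with per-array values in the text; symbols mark the experiment, black bars the mean and SD of 3 arrays, and the axes differ between panels. All 9 treated arrays are below Control for PSMB6 and PSMD11, and the PIM-Pd arrays of PSMA3, from 6.62 to 6.82, are below all other arrays.

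Among the ATPases of the base, PSMC2, PSMC3, PSMC4, PSMC5 and PSMC6, no difference passed in any treatment. PSMC6 had the widest span, with -0.50 in PIM, -0.03 in Pd and -0.16 in PIM-Pd (SE 0.168). PSMC4, with a mean of 5.12, differed least in PIM (-0.0039). The base genes PSMD1 and PSMD2, which form its scaffold, and PSMD4, a ubiquitin receptor, had differences from -0.49 to -0.10, and none passed. PSMD5, the base chaperone, had -0.25 in PIM, -0.02 in Pd and -0.01 in PIM-Pd (SE 0.128), where experiments 2 and 3 had opposite signs in Pd (0.28 and -0.30) and in PIM-Pd (0.30 and -0.28).

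In the lid, PSMD11 (ENSG00000108671_at), a scaffold subunit, was the gene that passed in PIM-Pd. Its log2 values were 10.01, 10.11 and 10.11 in Control and 9.64, 9.56 and 9.91 in PIM. They were 9.64, 9.54 and 9.74 in Pd, and 9.48, 9.78 and 9.50 in PIM-Pd. Every treated array lay below every Control array. PSMD11 fell by 0.49 in PIM-Pd (SE 0.123, 28.7% lower, n = 3, limma adjusted p = 0.0209), and was lower in 3 of 3 experiments. Its Pd difference of -0.44 was just outside (limma adjusted p = 0.0535), as was that of the lid gene PSMD13, named after its values were seen (-0.39, 0.0523). In PIM the PSMD11 difference was -0.38 (limma adjusted p = 0.671). It was -0.17 there without the 3 arrays that stood apart. The PIM-Pd call was lost without Control 2 (limma adjusted p = 0.0687), Control 3 (0.0751), PIM-Pd 1 (0.0787) or PIM-Pd 3 (0.0794), without the 3 arrays that stood apart (0.0529), and without experiment 1 (0.165) or 3 (0.192), while the difference stayed between -0.47 and -0.42. Over the alternatives the adjusted p ran from 0.00853 to 0.192 in PIM-Pd and from 0.0179 to 0.235 in Pd, where 9 of 24 settings passed, among them those without PIM 2 (0.0485), PIM 3 (0.0383) or PIM-Pd 2 (0.0428).

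PSMD14 (ENSG00000115233_at), the metalloprotease of the lid that cuts ubiquitin chains from substrates, had Control values of 8.81, 8.30 and 8.64 and PIM values of 8.22, 7.73 and 8.21. They were 8.02, 8.20 and 8.20 in Pd, and 7.97, 8.18 and 8.12 in PIM-Pd. The treated arrays were all below the Control arrays, and the differences of -0.53, -0.45 and -0.49 (SE 0.154) did not pass (limma adjusted p = 0.667, 0.126 and 0.0609). PSMD12 (ENSG00000197170_at), another lid scaffold, had values of 7.85, 7.28 and 7.67 in Control and 7.51, 6.89 and 7.40 in PIM. They were 7.40, 7.14 and 7.10 in Pd, and 6.81, 7.25 and 7.19 in PIM-Pd. The lowest Control array, Control 2, overlapped PIM and Pd and lay just above the PIM-Pd arrays, and the PIM-Pd difference was -0.52 (SE 0.183, limma adjusted p = 0.101). Without Control 2, PSMD12 (-0.68, limma adjusted p = 0.0460) and PSMD14 (-0.64, 0.0258) passed in PIM-Pd, and PSMD14 also passed there without PIM 2 (0.0301). Leaving out experiment 2 had the same effect in PIM-Pd (limma adjusted p = 0.0283 and 0.0216) and for PSMD14 in Pd (0.0450). Over the alternatives the adjusted p in PIM-Pd ran from 0.0283 to 0.604 for PSMD12 and from 0.0216 to 0.457 for PSMD14. Both differences were smallest without experiment 1, at -0.26 for PSMD12 and -0.32 for PSMD14. PSMD6 was the gene with a mean above Control in PIM-Pd (0.07, SE 0.141). PSMD3, named after its values were seen, had -0.44 in PIM-Pd and passed with the experiment as a block (limma adjusted p = 0.0293, against 0.115 without it). By experiment its difference was -0.64, -0.38 and -0.30, largest in experiment 1, which holds PIM-Pd 1, an array that stood apart.

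**Figure D4:**
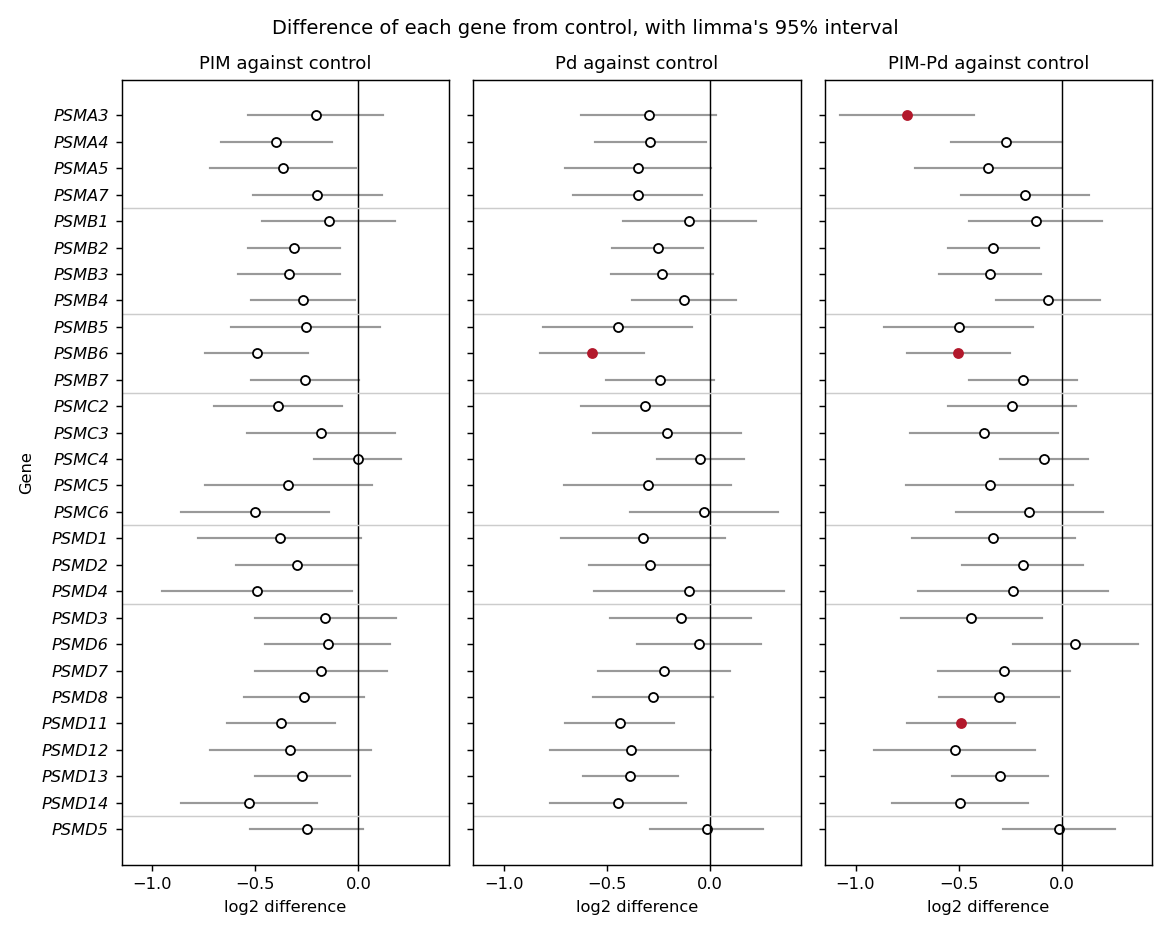
Log2 difference of each of the 28 genes from Control in each treatment, with limma's 95% confidence interval; genes are ordered by role and filled red points passed at adjusted p under 0.05. Points lie left of 0 apart from PSMD6 in PIM-Pd, and the red points are PSMB6 in Pd and PSMA3, PSMB6 and PSMD11 in PIM-Pd.

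PIM447 alone was compared with Control to see what the inhibitor did by itself. All 28 genes had a lower mean in PIM, with a median difference of -0.28 and a range from -0.53 (PSMD14) through PSMC6 (-0.50) and PSMB6 (-0.49) to -0.0039. Over all 17710 genes the median was 0.0099 and 47.4% had a lower mean. limma called 0 of the 28 lower at adjusted p under 0.05, and it called 0% of all genes; at an unadjusted p under 0.05, 13 of 28 were lower, against 2.94% of all genes. For 10 of 28 every PIM array was below every Control array (4.99% of all genes). By experiment the median difference was -0.39, -0.35 and -0.18, and 21 genes were lower in 3 of 3 experiments, against 14.8% of all genes. The shift was about -0.3 log2 units and spread over most of the 28 genes, and no single gene stood out of the whole table. The 28 genes varied together within groups, so their counts in each comparison are not counts of separate observations. Each treatment was compared with Control on 3 arrays against 3. Without PIM 1, PIM 2 and PIM-Pd 1 the group rests on PIM 3 alone, assumed to vary like the other groups, and the median was -0.17 with 22 of 28 genes lower and 0 called by limma.

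For Pd, compared with the same Control arrays, the 28 genes again had lower means, with a median difference of -0.28 (all genes -0.0089, 52.1% lower). limma called 1 of 28 lower, PSMB6, where 1.94% of all genes were called lower; it called 0 of 28 higher, against 3.48%. At an unadjusted p under 0.05, 9 genes were lower, against 7.79% of all genes. For 14 of 28 every Pd array was below every Control array, against 12.3% of all genes. The experiments' medians were -0.39, -0.09 and -0.31, and 18 genes were lower in 3 of 3 experiments, against 20.6% of all genes. In the main fit the count of 1 is near the background share. It became 0 without Control 1, where 139 of all genes were called lower. The count rose to 3 without PIM 2 (372 of all genes) and to 2 without PIM 3 (347) or PIM-Pd 2 (328). It was 3 without the 3 arrays that stood apart (498), where the median stayed at -0.28. It was 0 without experiment 1 (86) or 3 (58) and 2 without experiment 2 (175). The median was -0.18 without experiment 1 and -0.37 without experiment 2.

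For PIM-Pd, 27 of 28 genes had a lower mean, with a median difference of -0.30 (all genes 0.0084, 48.3% lower). limma called 3 of 28 lower, PSMA3, PSMB6 and PSMD11, where 5.02% of all genes were called lower; it called 0 higher, against 4.42%. At an unadjusted p under 0.05, 13 were lower, against 10.5% of all genes. With the experiment as a block PSMD3 joined them, for 4 of 28, where 5.86% of all genes were called lower. For 12 of 28 every PIM-Pd array was below every Control array, against 12.5% of all genes. Experiment 2 differed from the others, with a median of -0.03 against -0.52 in experiment 1 and -0.29 in experiment 3, and 15 genes were lower in 3 of 3 experiments, against 20.1% of all genes. The count of 3, beside 889 of all genes, became 1 without Control 3 (575 of all genes) or PIM-Pd 1 (605). It became 5 without Control 2 (637) or PIM 2 (951). Without the 3 arrays that stood apart it was 1 (734), with a median of -0.21 and 25 genes lower. Without experiment 1 it was 0 (328), with a median of -0.14 and 23 genes lower. It was 4 without experiment 2 (554), with a median of -0.40, and 1 without experiment 3 (282). By role, the median PIM-Pd difference was -0.31 in the alpha ring, -0.23 in the structural and -0.50 in the catalytic beta genes. It was -0.24 in the ATPases, -0.24 over PSMD1, PSMD2 and PSMD4, and -0.37 in the lid, and PSMD5 had -0.01. By experiment the catalytic median was -0.76, -0.28 and -0.17. In experiment 2 the alpha ring (0.03), the ATPases (0.12) and PSMD1, PSMD2 and PSMD4 (0.14) were above 0. The structural beta genes (-0.11), the catalytic genes and the lid (-0.15) were below it there. The 3 comparisons share the Control arrays, so a Control array that ran high or low moves all of them.

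**Figure D5:**
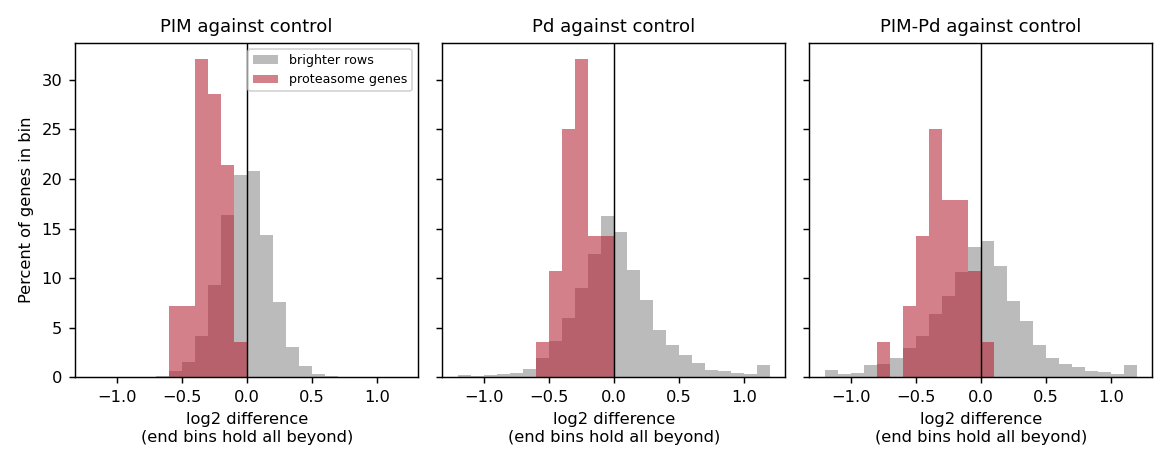
Percent of genes in bins of 0.1 log2 unit by their difference from Control, for the 28 proteasome genes (red) and the 8855 genes brighter than the median gene (grey); the end bins hold all values beyond them. The proteasome genes lie left of 0, apart from PSMD6 in PIM-Pd, around medians of -0.28, -0.28 and -0.30, within the range of the brighter genes, whose medians were -0.01 in each comparison.

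The 28 measured genes were all brighter than the median gene, so the brighter 8855 genes serve as a closer comparison. Of these, 52.5, 51.6 and 51.3% had a lower mean in PIM, Pd and PIM-Pd. limma called 3.52% of them lower in Pd and 9.25% in PIM-Pd. In the main fit the counts of 1 and 3 of 28 are therefore near the background of the brighter genes. Every treated array was below every Control array for 6.62, 17.3 and 19.6% of the brighter genes. At an unadjusted limma p under 0.05, 4.54, 12.6 and 18.2% of them were lower. In 3 of 3 experiments, 20.2, 25.6 and 27.7% of them were lower. These shares are higher than those over all genes given above. Between arrays of a group, the proteasome genes had a median SD of 0.18 in Control, 0.18 in PIM, 0.10 in Pd and 0.17 in PIM-Pd. For the brighter genes it was 0.14, 0.19, 0.13 and 0.18. The spread of the proteasome genes was thus wider than theirs in Control and slightly narrower in the treated groups, most so in Pd.

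Adding PIM447 to Pd was compared in PIM-Pd against Pd, whose times were 10 and 15 h. The median difference was -0.03, with 18 genes lower and 10 higher. limma called 0 of 28 (0.0734% of all genes were called lower), and 1 gene, PSMA3, was lower at an unadjusted p under 0.05, against 4.66% of all genes. PSMA3 differed by -0.45 (SE 0.152, limma adjusted p = 0.406), with every PIM-Pd array below every Pd array. PSMD3 (-0.29) and PSMC3 (-0.17) were next, and PSMA7 (0.17), PSMD6 (0.12) and PSMD2 (0.10) were the highest. The median was 0.05 without PIM-Pd 1, and also without the 3 arrays that stood apart, where limma called 0 genes, so it had no settled direction.

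PIM-Pd was also compared with PIM, to see what Pd added. The median difference was 0.0015, with 14 genes lower and 14 higher. limma called 0 of 28, where 2.71% of all genes were called lower, and 1 gene was lower at an unadjusted p under 0.05, against 8.53% of all genes. That gene was PSMA3, at -0.54 (SE 0.152, limma adjusted p = 0.0511), with every PIM-Pd array below every PIM array; with the experiment as a block it passed (limma adjusted p = 0.0469), 1 of 28 where 3.42% of all genes did. The count was also 1 without Control 1 or PIM 1, and 0, with a median of -0.03, without the 3 arrays that stood apart. On leaving out single arrays or experiments the median ran from -0.11 to 0.14. PSMD3 (-0.28) and PSMB5 (-0.24) followed, and PSMC6 (0.35), PSMD4 (0.26) and PSMD5 (0.24) were the highest. By experiment PSMD4 differed by 0.07, 0.78 and -0.08, so its value came mostly from experiment 2, which holds PIM 2.

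Whether the PIM447 difference was the same with and without Pd was tested as the interaction, PIM-Pd minus Pd minus PIM plus Control. A value of 0 would mean that the log2 differences of PIM and Pd add up. For 25 of 28 genes it was above 0, with a median of 0.30. Over all genes the median was -0.0071, and 8604 of 17710 were above 0. The Control arrays enter the interaction too, so a Control array that ran high or low also moves it. limma called 0 of 28 in either direction (0.0113% of all genes were called lower), and 5 were higher at an unadjusted p under 0.05, against 2.5% of all genes. PSMB6 had 0.57 (SE 0.167, limma adjusted p = 0.655), PSMD14 0.48 and PSMC2 0.47, while PSMA3 (-0.25), PSMD3 (-0.13) and PSMC4 (-0.03) were below 0. No gene passed this test, so for single genes a sum of both differences cannot be told apart from a smaller one. Without the 3 arrays that stood apart the median was 0.23, with 7 of 28 genes below 0 and 0 called, and PIM447 acted for 10 h in PIM-Pd against 24 h in PIM.

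The genes also varied together within groups. With the group means removed, the mean pairwise Pearson correlation over the 12 arrays was 0.396 among the 28 genes, against 0.0071 among the brighter genes and 0.0014 among all genes. PSMD1 (0.610), PSMB2 (0.576) and PSMB4 (0.570) had the highest mean correlation with the rest, and PSMB7 the lowest (-0.114). These correlations rest on 12 arrays in 3 experiments and describe arrays that were high or low together, among them the 3 that stood apart.

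The bases upstream of the genes' starts were read from RefSeq (GRCh38.p14), from a promoter table in which 27 of the 32 genes were matched. Whether letters in the promoters relate to the joint variation of the genes was not tested. The letters TGACNNNGC, found in antioxidant response elements, were searched on both strands in the 300 bases from 250 before to 50 after the most upstream start of each gene, and occurred in 6 of 27 (22.2%), against 13.6% of 27305 promoters. CCAAT occurred in 14 of 27 (51.9%), against 35.7%, and CACGTG in 1 of 27 (3.7%), against 7.41%. Of the 23 genes with both a promoter and a value, the 13 with CCAAT had a median PIM-Pd difference of -0.35 and the 10 without it -0.23; for TGACNNNGC it was -0.34 in 6 and -0.31 in 17. A match of letters is a description and not a site. The shares were set against all promoters, and promoters of similarly bright genes were not compared. The 250 bases before the start are shown for the genes called in PIM-Pd whose promoters were matched, PSMA3 (chr14:58244593-58244842, plus strand) and PSMD11 (chr17:32444260-32444509, plus strand), for the drug target PSMB5 (chr14:23035221-23035470, minus strand) and for PSMD12 (chr17:67366578-67366827, minus strand), each 5′ to 3′ on the gene's strand. Capitals mark CCAAT or its reverse complement in PSMA3 and PSMB5 and TGACNNNGC in PSMD12; the window of PSMD11 holds none of the 3 motifs.
PSMA3: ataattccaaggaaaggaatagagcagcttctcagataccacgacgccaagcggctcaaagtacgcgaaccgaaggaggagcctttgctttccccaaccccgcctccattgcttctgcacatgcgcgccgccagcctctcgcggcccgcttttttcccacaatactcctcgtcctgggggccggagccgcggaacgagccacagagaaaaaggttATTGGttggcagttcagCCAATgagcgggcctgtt
PSMD11: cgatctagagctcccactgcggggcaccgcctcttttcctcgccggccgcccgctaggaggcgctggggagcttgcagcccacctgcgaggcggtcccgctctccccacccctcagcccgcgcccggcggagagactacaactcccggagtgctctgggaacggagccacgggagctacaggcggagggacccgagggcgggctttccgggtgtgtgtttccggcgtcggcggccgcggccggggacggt
PSMB5: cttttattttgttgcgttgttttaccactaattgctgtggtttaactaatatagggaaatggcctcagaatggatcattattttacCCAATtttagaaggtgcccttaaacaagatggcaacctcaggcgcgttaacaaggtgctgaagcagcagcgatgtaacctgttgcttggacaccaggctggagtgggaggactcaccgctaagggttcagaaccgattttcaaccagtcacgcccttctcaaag
PSMD12: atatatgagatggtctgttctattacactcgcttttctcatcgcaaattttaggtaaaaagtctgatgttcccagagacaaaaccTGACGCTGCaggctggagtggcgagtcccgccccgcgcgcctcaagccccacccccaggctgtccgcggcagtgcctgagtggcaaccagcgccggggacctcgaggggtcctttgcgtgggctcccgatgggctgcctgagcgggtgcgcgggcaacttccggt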

How the data were processed

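The authors normalized the Clariom S arrays by RMA in oligo (1.44.0, R 3.5.0) with a custom BrainArray gene reference; the deposited values are log2 per gene. Gene names came from the order given with the identifiers and, for 4 genes also and for genes outside the list, from name pairs in the study's gene lists, which hold genes selected by change. Members and lists were chosen with earlier results of these data known. The planned lists of immunoproteasome, assembly, ubiquitin and chaperonin genes were not analysed here.

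Using R 4.3.3 and limma 3.58.1, 4 group means were fitted to all 12 arrays and 17710 genes (8 residual degrees of freedom) without a filter, with two-sided tests and Benjamini-Hochberg adjustment over all genes. The study used SAM. Per-array values are given for the catalytic subunits and the 6 genes with the largest PIM-Pd difference, since fewer than 6 were called. Leaving out the 3 arrays that stood apart was added after seeing the data. The labels describe the replicate numbers as pairs, so equal numbers were taken as 1 experiment; deviations from group means correlated with a median of 0.0965 (-0.1009 to 0.3031) in 18 pairs of arrays with equal numbers and -0.0443 (-0.3507 to 0.2031) in 36 others. The number of arrays limits the precision.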

Additional observations from a re-analysis of the deposited data

How the results depend on the processing

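In PIM, 0 genes were called by limma under every alternative (13 lower at unadjusted p under 0.05), and the median difference ran from -0.38 to -0.17, the last without the 3 arrays that stood apart. In Pd, 1 gene was called lower, beside 344 of all genes. The count became 2 with only the compared groups in the fit (522 of all genes) or after quantile normalization (356). It became 3 with brighter genes only (365 of 8855), an intensity trend (348), array weights (610) or without the 3 arrays that stood apart (498). It was 0 at a further limit of 1 log2 unit (29). Leaving out arrays or experiments gave 0 to 3. In PIM-Pd, the count of 3, beside 889 of all genes, became 5 with the intensity trend (886). It became 4 with the replicate block (1037), brighter genes only (929 of 8855) or arrays centred on their medians (1005). It was 1 without the 3 arrays (734) and 0 at the limit of 1 log2 unit (100). Leaving out arrays or experiments gave 0 to 5. PIM-Pd against PIM went from 0 genes to 1 with the replicate block, brighter genes only, quantile normalization or the intensity trend, and 0 to 1 on leaving out arrays or experiments. The replicate block, which pairs the arrays of an experiment, changed the calls of PSMD3 in PIM-Pd and PSMA3 in PIM-Pd against PIM, and no other call among the 28 genes. The interaction median was 0.2265 without the 3 arrays, and 0.222 to 0.3786 on leaving out arrays or experiments. Brighter genes only means fewer tests to adjust for; the cause of the other changes was not tested.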

Other observations

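Of the partners of the proteasome outside the list, 5 could be named, each from a gene list selected by change, so they are values without a count as support. PSMG1, an assembly chaperone of the alpha ring, had control, PIM, Pd and PIM-Pd means of 6.73, 6.20, 6.09 and 5.83, and its PIM-Pd difference was -0.91 (SE 0.181, limma adjusted p = 0.00496). PSMG3, another such chaperone, differed by -0.46 in PIM-Pd (limma adjusted p = 0.0310) and by -0.12 in Pd. The deubiquitinase USP14 differed by -0.52 in PIM-Pd (limma adjusted p = 0.00455), and UCHL5 by -0.74 in Pd (0.00950) and -0.50 in PIM-Pd (0.0531, or 0.0450 with the experiment as a block). UBE3C, a ubiquitin ligase that binds the proteasome, differed by -0.53 in PIM-Pd (limma adjusted p = 0.0107) and by -0.07 in PIM.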
